A study of Mus musculus with 9 samples.

Results

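The coagulation and fibrinolysis genes described here are 9 genes of blood clotting and clot removal, F3, F7, F10, F13a1, Plau, Plaur, Serpinb2, Thbs1 and Procr, of 24061 gene symbols in a count table of mouse macrophage RNA-seq libraries. They were chosen by symbol as genes with known roles in this pathway, with earlier results of these data known. Their counts of calls are therefore a description of a chosen set. The reads of all table rows with 1 symbol were summed. The cells were bone-marrow-derived macrophages (BMDMs), primary macrophages that grow out of C57BL/6J bone marrow in medium with L-cell supernatant, here from female mice 8 to 10 weeks old. Differentiation took 7 days, and the cultures then went without serum for a day before treatment. All 3 groups of 3 libraries were of this wild-type strain and received either T0 or its solvent DMSO at the same step. Veh cultures had DMSO alone. LPS cultures had DMSO and then 10 ng/mL of lipopolysaccharide (LPS), a bacterial agonist of the receptor TLR4, for 2 hr. T0+LPS cultures had 500 nM of T0901317 (T0), a synthetic agonist of the nuclear receptors LXRα and LXRβ, for 3 hr before LPS was added to the same medium. The study counts separately differentiated cultures as replicates, and whether cultures shared a mouse is not given in the sources used here. When the Veh cultures were harvested relative to the LPS addition is not given there either, so time in culture and LPS cannot be told apart in comparisons with Veh.

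Clotting outside the vessel starts when tissue factor, the membrane protein encoded by F3, binds factor VII (F7) and the pair activates factor X (F10), which leads to thrombin and fibrin. The factor XIII A chain (F13a1) cross-links fibrin. Clots are removed by plasmin, which is cut from plasminogen by urokinase (Plau) bound to its receptor uPAR (Plaur), and plasminogen activator inhibitor 2 (Serpinb2) blocks urokinase. Thrombospondin 1 (Thbs1) is an adhesive glycoprotein of platelet granules and matrix that macrophages also make, and Procr encodes the endothelial protein C receptor, which presents protein C to thrombin and thrombomodulin (Thbd) for activation. Monocytes and macrophages are a known source of tissue factor, urokinase and uPAR under bacterial stimuli.

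F3 and Plaur were called higher in LPS than in Veh and lower in T0+LPS than in LPS. Procr was called higher in LPS and in T0+LPS than in Veh and was not called in T0+LPS against LPS. F7 had the smallest LPS response. Promoter sequence is shown for these 4 members, which span the responses described below. Each is the 250 bases before the transcript start in RefSeq on GRCm38.p6, plus strand, read 5′ to 3′, at chr3:121723287-121723536 for F3, chr7:24462233-24462482 for Plaur, chr2:155750967-155751216 for Procr and chr8:13025784-13026033 for F7. Capitals mark matches, on either strand, to AP-1 (TGANTCA), CRE (TGACGTCA), EGR (GCGGGGGCG or GCGTGGGCG), the GC box (GGGCGG), the NF-kB consensus and the LXR direct repeat DR4. In Plaur the EGR match and the GC box matches overlap.
F3: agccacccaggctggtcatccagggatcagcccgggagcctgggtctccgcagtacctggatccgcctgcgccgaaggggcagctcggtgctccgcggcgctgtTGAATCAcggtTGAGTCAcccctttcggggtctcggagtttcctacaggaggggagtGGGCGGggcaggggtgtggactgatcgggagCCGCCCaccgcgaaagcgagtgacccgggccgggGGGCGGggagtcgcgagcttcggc
Plaur: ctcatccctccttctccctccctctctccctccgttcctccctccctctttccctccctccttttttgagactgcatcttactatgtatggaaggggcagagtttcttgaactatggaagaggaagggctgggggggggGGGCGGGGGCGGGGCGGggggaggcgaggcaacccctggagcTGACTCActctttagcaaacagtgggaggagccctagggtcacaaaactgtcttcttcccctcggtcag
Procr: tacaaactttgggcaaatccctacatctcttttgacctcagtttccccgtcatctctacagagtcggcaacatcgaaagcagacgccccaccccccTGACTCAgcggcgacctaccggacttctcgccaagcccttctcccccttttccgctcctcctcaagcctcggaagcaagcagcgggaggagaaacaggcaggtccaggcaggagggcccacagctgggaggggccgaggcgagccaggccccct
F7: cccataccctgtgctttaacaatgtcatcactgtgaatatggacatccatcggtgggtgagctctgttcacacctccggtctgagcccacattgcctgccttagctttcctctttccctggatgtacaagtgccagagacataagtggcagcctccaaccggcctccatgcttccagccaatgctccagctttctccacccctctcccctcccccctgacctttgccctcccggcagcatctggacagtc

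RefSeq windows were matched for 7 of the 9 members, F3, F7, F10, F13a1, Plaur, Serpinb2 and Procr. Plau and Thbs1 had none. The AP-1 letters, the site of Fos and Jun dimers, stood in the windows of F3 (2 matches), Plaur, Procr and Serpinb2, and 6.75% of all 32851 windows held them. GC box letters stood in F3 and in Plaur with 3 matches each, against 32.7% of all windows, and the EGR letters stood in Plaur, against 3.06%. CRE letters (1.55% of all windows), the NF-kB consensus (3.90%) and the DR4 (0.067%) had no match in any of the members' windows, and F7, F10 and F13a1 had no match to any of the 6 motifs. These are counts of exact letters in short windows and were not tested. Sites that depart from these letters were not searched, so no match does not mean no site.

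The libraries held 13299044 to 16467983 counted reads. The LXR targets Abca1 and Abcg1, which encode cholesterol exporters, were called higher in T0+LPS than in LPS (log2 fold changes 1.47 and 2.09), and the LPS target Il1b was called higher in LPS than in Veh (log2 fold change 9.34). Of 7 macrophage markers, 6 were above 1 CPM (reads relative to library size, with TMM factors), and the exception, Itgam, had 0 reads on 3 bases that only 1 row covered. Summed markers of stromal cells, mast cells and basophils, lymphocytes and hepatocytes stayed under 1 CPM in every library, and those of dendritic cells reached at most 1.35 CPM and of neutrophils at most 3.93 CPM. Of the 7 neutrophil markers, Ly6g was not among the symbols and S100a9 had 0 reads on 3 unshared bases, so that sum leaves both out. Monocyte markers, nearly all of them Ccr2 reads, summed to 66.6 to 93.8 CPM in Veh, 39.6 to 50.8 CPM in LPS and 44.3 to 46.2 CPM in T0+LPS, and their part in the results was not tested. In bulk RNA, fewer expressing cells and less RNA per cell cannot be told apart. Genes were called at an adjusted p under 0.05 by the quasi-likelihood test of edgeR (Benjamini-Hochberg, over all genes tested), fitted to the 6 libraries of a comparison. The p-values measure the spread between cultures, of which there were 3 a group, and an exact 2-sided permutation test of 3 against 3 cannot go below p = 0.1.

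Of the 9 members, 7 had enough reads to be tested in all 3 comparisons. The other two were hardly measurable, since the counting discarded reads on bases that several table rows share. F13a1, on chr13:36867178-37050244 of mm10 (minus strand, 15 exons in each of 2 transcript rows), had only 123 unshared bases of 3927, or 3.13%, both stretches lying in the first exon and annotated as untranslated. It had 0 reads in every library, which on so few bases does not show that the gene was silent. Serpinb2, on chr1:107511423-107525600 (plus strand, 8 exons in each of 2 rows), had 131 unshared bases of 2047, or 6.40%, again untranslated first exon. It held 0 reads in every Veh library, 1, 4 and 1 in LPS replicates 1 to 3, and 0, 2 and 4 in T0+LPS replicates 1 to 3. All 12 reads therefore came from LPS-treated cultures, and no fold was drawn from so few. Fitted without the filter, Serpinb2 was called higher in both LPS-treated groups than in Veh by edgeR (adjusted p = 0.0309 for LPS and adjusted p = 0.0368 for T0+LPS), while DESeq2 gave adjusted p = 0.109 for LPS and none for T0+LPS. Both comparisons set a few reads against 0 in Veh, so these calls say no more than the reads themselves.

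With TMM scaling, all 7 tested members were called higher in LPS than in Veh, where 32.9% of all 9559 tested genes were called higher and 31.2% lower. F7 was called only with TMM or a like scaling and not under library totals. The median log2 fold change of the 7 was 1.70, and that of all tested genes was -0.0019. For all 7 the lowest LPS library was above the highest Veh library, as for 33.6% of all tested genes, while the reverse held for 33.7%. The rises ranged from 1.23-fold for F7 to 4.86-fold for Plaur.

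**Figure D1:**
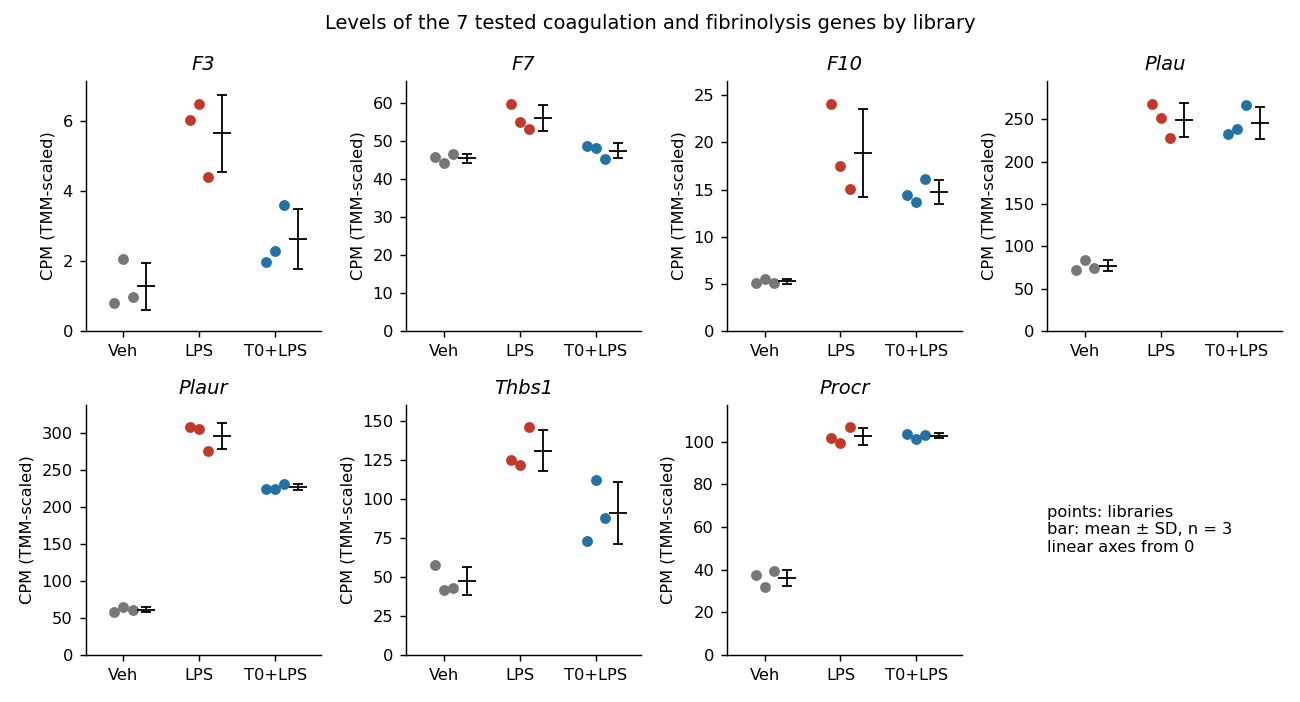
CPM of the 7 tested members on linear axes, 1 panel a gene and 1 point a library in Veh, LPS and T0+LPS, with the mean and SD of 3 libraries beside them. With this scaling the LPS points lie above the Veh points in every panel (F7 loses its call under library totals), and the T0+LPS points lie below the LPS points in F3, F7, Plaur and Thbs1 and among them in Plau and Procr. In F10 the T0+LPS points, at 13.7 to 16.2 CPM, overlap only the low end of the LPS points, at 15.1 to 24.1 CPM.

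Among the genes that start clotting, F3 and F10 rose several-fold with LPS and F7 by much less. F3, on chr3:121723537-121735052 (plus strand, 6 exons, all 1876 exon bases unshared), encodes tissue factor. Its level was 0.802, 2.05 and 0.985 CPM in the Veh libraries, 6.02, 6.48 and 4.40 CPM in LPS and 1.98, 2.30 and 3.60 CPM in T0+LPS. The LPS libraries stood above all others and the T0+LPS libraries lay between, overlapping Veh. These levels rest on 15 to 31 reads a library in Veh, 57 to 89 in LPS and 26 to 52 in T0+LPS. The log2 fold change was 2.18 with LPS against Veh (SE 0.27, adjusted p = 2.3e-06, edgeR).

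With T0, F3 fell by 53.4% in mean CPM from the LPS level, a log2 fold change of -1.09 (SE 0.22, 95% interval -1.57 to -0.62, adjusted p = 0.0119, edgeR). Each T0+LPS library was below each LPS library. The call was kept in all 9 other settings. The lowest adjusted p, 1.72e-06, came from edgeR with no filter. In the rest it ran from 0.00194 (edgeR with a replicate block) to 0.0189 (edgeR on all 9 libraries). The call was lost in the edgeR fits without LPS replicate 1 (adjusted p = 0.0583) and without T0+LPS replicate 2 (adjusted p = 0.0718). F3 nevertheless remained above Veh in T0+LPS, with a log2 fold change of 1.06 (SE 0.32, adjusted p = 0.00916, edgeR). That call was lost without T0+LPS replicate 3, at a log2 fold change of 0.78 (adjusted p = 0.077).

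F7 and F10 lie beside each other on chromosome 8, F7 at chr8:13026034-13035809 (8 exons, all 1859 exon bases unshared) and F10 at chr8:13037308-13056676, both on the plus strand with 1498 bases between them. F7, the plasma protease that tissue factor binds, stood at 45.8, 44.1 and 46.5 CPM in Veh, 59.8, 55.0 and 53.2 CPM in LPS and 48.8, 48.2 and 45.1 CPM in T0+LPS. The 3 LPS libraries were the highest, and Veh and T0+LPS overlapped. Against Veh the LPS log2 fold change was 0.30 (SE 0.06, adjusted p = 0.00024, edgeR), and under scaling by library totals, which moves the median of all genes by -0.28, it was 0.02 and the call was lost (adjusted p = 0.764). The same scaling turned the T0+LPS against Veh value of F7 from 0.04 (adjusted p = 0.571) to -0.23 (adjusted p = 0.00137). The F7 calls against Veh thus depended on the scaling. T0+LPS against LPS gave -0.24 (SE 0.06, 95% interval -0.38 to -0.10, adjusted p = 0.0556, edgeR), just short of the threshold, and the 3 T0+LPS libraries were below the 3 LPS libraries. Over the 9 other settings that call was made in 4, with adjusted p from 0.0211 to 0.105, and of the 6 fits without 1 library it was made in the one without LPS replicate 3 (adjusted p = 0.0281).

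F10, the zymogen that tissue factor and factor VII activate, had 2 rows of 9 exons. One shared every base with the other, so that all 1628 reads of the symbol fell on 190 bases of exon 2 of the second row (chr8:13037625-13037814), 7.06% of the exon bases and untranslated in at least 1 annotated transcript. Its level was 5.13, 5.55 and 5.16 CPM in Veh, 24.1, 17.5 and 15.1 CPM in LPS and 14.4, 13.7 and 16.2 CPM in T0+LPS. Every LPS-treated library was above every Veh library, and LPS and T0+LPS overlapped. LPS raised F10 by a log2 fold change of 1.84 over Veh (SE 0.15, adjusted p = 2.59e-08, edgeR), and T0+LPS against Veh was 1.46 (SE 0.11, adjusted p = 8.84e-09, edgeR). T0+LPS against LPS was -0.35 (SE 0.14, 95% interval -0.65 to -0.06, adjusted p = 0.248, edgeR) and was not called. Without LPS replicate 3 it was -0.49 and called (adjusted p = 0.0413), and over the 6 fits without 1 library the adjusted p ran from 0.0413 to 0.786. Among the 9 other settings it was called with no filter (adjusted p = 0.023), the highest adjusted p of these being 0.332. Because these reads came from 1 exon of 1 row, the value describes that row and a change in transcript use cannot be told apart from a change in the gene's total RNA.

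Urokinase and its receptor both rose with LPS and parted with T0. Plau, on chr14:20836662-20843388 (plus strand, 11 exons, 2343 exon bases), encodes urokinase. It stood at 72.4, 84.4 and 74.4 CPM in Veh, 268, 251 and 228 CPM in LPS and 232, 238 and 267 CPM in T0+LPS. Both LPS-treated groups were above Veh without overlap and overlapped each other. The log2 fold change was 1.70 with LPS against Veh (SE 0.07, adjusted p = 9.29e-13) and 1.65 with T0+LPS against Veh (SE 0.06, adjusted p = 5.95e-13), both in edgeR. T0+LPS against LPS was -0.02, with a 95% interval from -0.15 to 0.12 (adjusted p = 0.94, edgeR), and its sign changed in the fits that left out LPS replicate 1 or either of T0+LPS replicates 1 and 2.

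Plaur, on chr7:24462500-24475873 (plus strand, 7 exons, 1396 exon bases), encodes uPAR, which holds urokinase at the cell surface. Its level was 58.2, 64.3 and 60.7 CPM in Veh, 307, 305 and 276 CPM in LPS and 224, 224 and 231 CPM in T0+LPS. The 3 groups did not overlap, with T0+LPS between. LPS against Veh gave a log2 fold change of 2.28 (SE 0.06, adjusted p = 1.83e-15, edgeR), near that of F3, which stood above it without Veh replicate 2 (2.66 against 2.32). With T0 the level fell by 23.5% from LPS, a log2 fold change of -0.39 (SE 0.05, 95% interval -0.49 to -0.28, adjusted p = 0.00037, edgeR). This was called in all 9 other settings and in all 6 fits without 1 library, in which it ran from -0.43 to -0.36. T0+LPS against Veh remained at 1.87 (SE 0.04, adjusted p = 2.21e-15, edgeR).

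The ratio of Plau to Plaur reads within a library needs no scaling factor. This ratio was chosen after the values were seen. It was 1.24, 1.31 and 1.23 in Veh, 0.873, 0.822 and 0.825 in LPS and 1.04, 1.06 and 1.15 in T0+LPS. The ratio was lowest in LPS and highest in Veh, with T0+LPS between, and no 2 groups overlapped. Since the genes differ in length, it is read between groups only.

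**Figure D2:**
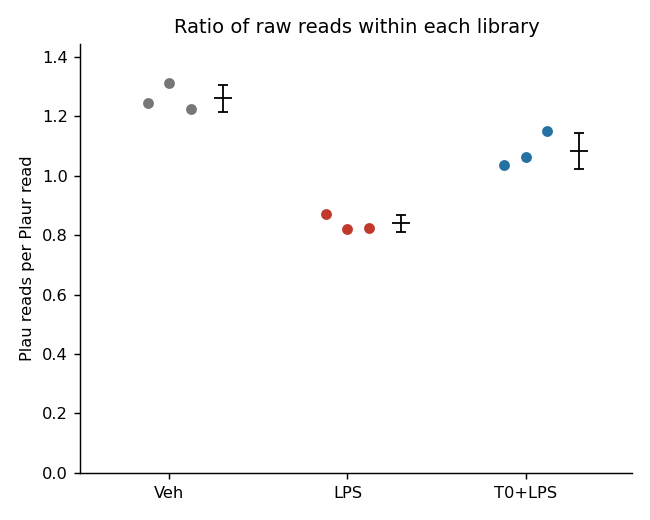
Plau reads divided by Plaur reads in each library (y axis, linear from 0, no unit) for Veh, LPS and T0+LPS, with the mean and SD of 3 libraries. The LPS libraries lie at 0.822 to 0.873, the T0+LPS libraries at 1.04 to 1.15 and the Veh libraries at 1.23 to 1.31.

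Thbs1, on chr2:118111922-118127133 (plus strand, 22 exons, 5802 exon bases), rose with LPS and was lower with T0. It stood at 57.4, 41.6 and 42.5 CPM in Veh, 125, 122 and 146 CPM in LPS and 73.2, 112 and 87.4 CPM in T0+LPS. The 3 groups did not overlap, though T0+LPS replicate 2 came near the lowest LPS library. The log2 fold change was 1.47 with LPS against Veh (SE 0.10, adjusted p = 1.37e-09) and 0.92 with T0+LPS against Veh (SE 0.13, adjusted p = 1.24e-05), both in edgeR. With T0 its mean fell by 30.4% from LPS, a log2 fold change of -0.52 (SE 0.11, 95% interval -0.76 to -0.28, adjusted p = 0.0158, edgeR). The call was lost with DESeq2 (adjusted p = 0.16) and in edgeR without T0+LPS replicate 3 (adjusted p = 0.0718). Over the 9 other settings the lowest adjusted p, 7.78e-15, came from edgeR with no filter. In the rest it ran from 0.000103 (edgeR with a replicate block) to 0.16 (DESeq2).

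Thrombospondin 1 is also a platelet protein, so platelet and megakaryocyte markers were read beside it. The sum of 5 such markers was 9.91 to 13.1 CPM in Veh, 32.5 to 37.1 CPM in LPS and 40.1 to 43.2 CPM in T0+LPS. Nearly all of it was Pf4, the chemokine platelet factor 4, at 10.8, 34.1 and 40.4 CPM in the means of Veh, LPS and T0+LPS. The other four, Ppbp, Itga2b, Gp1bb and Gp9, had group means of at most 0.712 CPM. Gp1bb had 0 reads on 238 unshared bases of 2085, which does not show that it was silent.

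Procr, on chr2:155751217-155755478 (plus strand, 4 exons, 1504 exon bases), rose with LPS, and its LPS and T0+LPS levels overlapped. Its level was 37.5, 31.9 and 39.1 CPM in Veh, 101, 99.1 and 107 CPM in LPS and 103, 101 and 103 CPM in T0+LPS. LPS against Veh was 1.50 on the log2 scale (SE 0.07, adjusted p = 4.94e-12, edgeR) and T0+LPS against Veh was 1.48 (SE 0.06, adjusted p = 3.21e-12, edgeR). T0+LPS against LPS was 0.0039, with a 95% interval from -0.10 to 0.11 (adjusted p = 0.986, edgeR), and its sign changed under library totals and in fits without LPS replicate 1 or 2. Of the endothelial markers, Cdh5 was at most 0.402 CPM in the group means, Cldn5 had 0 reads, Tek had no unshared base, and Kdr was 13.3, 8.42 and 9.38 CPM in the means of Veh, LPS and T0+LPS.

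In T0+LPS against LPS, 3 of the 7 tested members were called lower (F3, Plaur and Thbs1) and 0 higher, where 1.83% of all 9348 tested genes were called lower and 1.35% higher. At an unadjusted p under 0.05 the members lower were 5 and those higher 0, where 7.43% of all tested genes were lower and 6.46% higher at that threshold. DESeq2 called 2 members lower and 0 higher. The median log2 fold change of the 7 was -0.35, against 0.0028 over all tested genes. In 4 members, F3, F7, Plaur and Thbs1, every T0+LPS library was below every LPS library, as in 9.62% of all tested genes, while 9.51% lay apart in the other direction. Against Veh, T0+LPS had 6 of the 7 called higher, all but F7, and 0 lower (0 also at an unadjusted p under 0.05 and with DESeq2), where 32.4% of 9636 tested genes were called higher and 32.9% lower. In 5 of them, all of the 6 but F3, the groups did not overlap, as in 35.6% of all tested genes, with 33.8% apart in the other direction. The T0+LPS against LPS and the LPS against Veh comparisons share the LPS libraries, so a low or high LPS library moves both.

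**Figure D3:**
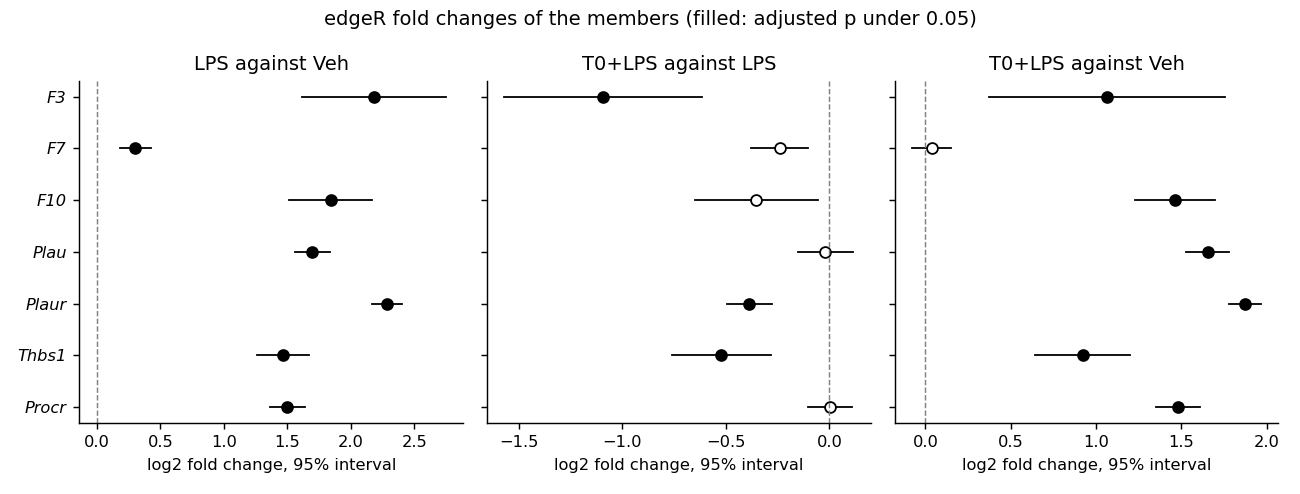
Log2 fold change (x axis) of the 7 tested members with its 95% interval from edgeR in the 3 comparisons, filled where the adjusted p was under 0.05. LPS against Veh lies right of 0 for all 7, and T0+LPS against LPS is filled left of 0 for F3, Plaur and Thbs1, while Plau and Procr sit at 0 (F7 against Veh falls to 0.02 under library totals).

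Levels can be compared between genes only per length, which was done for the 6 members whose exon bases were all unshared. In Veh the order was Plaur at 43.7 ± 2.22 CPM per kilobase (SD, n = 3), Plau at 32.9 ± 2.76, F7 at 24.5 ± 0.664, Procr at 24.1 ± 2.50, Thbs1 at 8.13 ± 1.53 and F3 at 0.682 ± 0.359. F7 and Procr overlapped and no other neighbours did. In LPS, Procr stood above F7, and the order was Plaur (212 ± 12.6 CPM per kilobase), Plau (106 ± 8.67), Procr (68.1 ± 2.52), F7 (30.1 ± 1.82), Thbs1 (22.5 ± 2.25) and F3 (3.00 ± 0.582). The order in T0+LPS was the same as in LPS, with no overlap of neighbours in either group. Tissue factor RNA was the lowest of the 6 in every group.

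The rest of the pathway was read from a list of 47 further genes, of which 19 were tested in each comparison. LPS against Veh called 6 of the 19 higher and 5 lower, T0+LPS against Veh 6 higher and 6 lower, and the list's median log2 fold change with LPS was 0.03. These shares are near or below those of all tested genes given above. Under library totals 5 were called higher and 9 lower in each of these comparisons. The genes called higher include Plat and F2r in both comparisons. These had few Veh reads and were tested only through their LPS-treated libraries, so their calls add little to the counts. Of the 28 genes not tested, 15 had 0 reads in all libraries, 13 of them on at least 200 unshared bases. Among these, F8 had only 210 unshared bases of 7509 and Cd36 had 249 of 3927, so their 0 does not show silent genes. These 15 included the fibrinogen chains Fga, Fgb and Fgg, plasminogen (Plg) and the thrombin receptor relative F2rl1. Prothrombin (F2) had 1 read over the 9 libraries. In these cultures, reads of fibrinogen, prothrombin and plasminogen were therefore at or near 0.

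Of the 19, the other plasminogen activator had the greatest rise. Plat, which encodes tissue plasminogen activator, had 0, 2 and 0 reads in Veh, 186, 168 and 154 in LPS and 108, 164 and 166 in T0+LPS. Its LPS to Veh ratio was 330 with an exact 95% counting interval from 90.9 to 2734, which covers counting error only. Both LPS-treated groups were far above Veh, and the T0+LPS libraries, at 8.22, 11.4 and 11.5 CPM, were below the LPS libraries, at 14.7, 12.2 and 11.9 CPM. T0+LPS against LPS was -0.31 on the log2 scale (SE 0.14, adjusted p = 0.305, edgeR) and was not called.

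Of the 4 tested genes of natural anticoagulants, Tfpi, Thbd, Pros1 and Proz, the first pair was called lower with LPS, and under library totals, which lower the median of all genes, all 4 were (Pros1 at -0.40, adjusted p = 4.51e-06, and Proz at -0.34, adjusted p = 0.0143, both edgeR). Thbd, thrombomodulin, the partner of Procr in protein C activation, was called lower with LPS, from 18.6, 19.6 and 18.3 CPM in Veh to 4.20, 3.86 and 4.79 CPM in LPS, and stood at 5.79, 4.81 and 4.30 CPM in T0+LPS. Its log2 fold change was -2.13 in LPS against Veh (SE 0.11, adjusted p = 4.42e-11, edgeR) and 0.21 in T0+LPS against LPS (adjusted p = 0.674, edgeR). Procr and Thbd thus moved in opposite directions with LPS, and Procr reads per Thbd read went from 1.63 to 2.14 in Veh libraries to 22.3 to 25.7 in LPS libraries. Tfpi, the inhibitor of tissue factor and factor VII, was called lower with LPS at -0.55 (SE 0.19, adjusted p = 0.0199, edgeR), on 27 to 69 reads a library in Veh and LPS, and the call was lost with DESeq2 and without Veh replicate 2 or LPS replicate 2 (adjusted p up to 0.11). Only 803 of its 3780 exon bases, over 3 rows, were unshared. A change in transcript use therefore cannot be told apart from a change in its total RNA. Ggcx, the carboxylase that factors VII and X need, was called lower at -0.59 (SE 0.10, adjusted p = 5e-05, edgeR). Pros1, protein S, was at -0.12 in LPS against Veh and was not called (adjusted p = 0.0571, edgeR), but was called lower in 4 of 15 alternative fits, with adjusted p from 4.51e-06 to 0.224. Against Veh in T0+LPS it was at -0.13 and called lower (adjusted p = 0.0277, edgeR), a call kept in 8 of 15 alternative fits.

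Among the remaining called genes, Tgm2, a tissue transglutaminase that can cross-link fibrin, rose by 3.12 on the log2 scale with LPS (adjusted p = 9e-18, edgeR), and the thrombin receptor F2r (PAR1) rose by 3.09 (adjusted p = 4.06e-06, edgeR) from 2 to 4 reads a library in Veh. Plat and F2r had so few Veh reads that they were tested only through their LPS-treated libraries, so that their calls say little beyond the reads themselves. Of the proteins that hold plasminogen at the cell surface, Anxa2 and S100a10, which form 1 complex, were called higher by 0.50 and 0.31, and the receptor Plgrkt was called lower at -0.26. The thrombospondin receptor Cd47 rose by 0.72 and the clearance receptor Lrp1 was at -0.23 and called lower. For these 5 genes the edgeR adjusted p was at most 0.00136. Under library totals S100a10 was at 0.03 and lost its call (adjusted p = 0.605), and the calls of the other six named here held. Vwf, von Willebrand factor, stood at 173 ± 6.01, 176 ± 3.50 and 155 ± 10.3 CPM (SD, n = 3) in Veh, LPS and T0+LPS. In LPS against Veh its log2 fold change was 0.03 (adjusted p = 0.613, edgeR) but -0.26 and called lower under library totals (adjusted p = 0.00012, edgeR). In T0+LPS against Veh, Vwf was at -0.18 and called lower (adjusted p = 0.00426, edgeR), a call kept in 15 of 15 alternative fits. Eno1 had 127 unshared bases of 1776 and its level is uncertain. With T0, 0 of the 19 were called against LPS by edgeR or DESeq2 (at an unadjusted edgeR p under 0.05, 3 were lower and 0 higher), although edgeR with no filter called Vwf lower (adjusted p = 0.045, the lowest of 15 alternative fits that reached 0.384), and the list's median was 0.03.

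**Figure D4:**
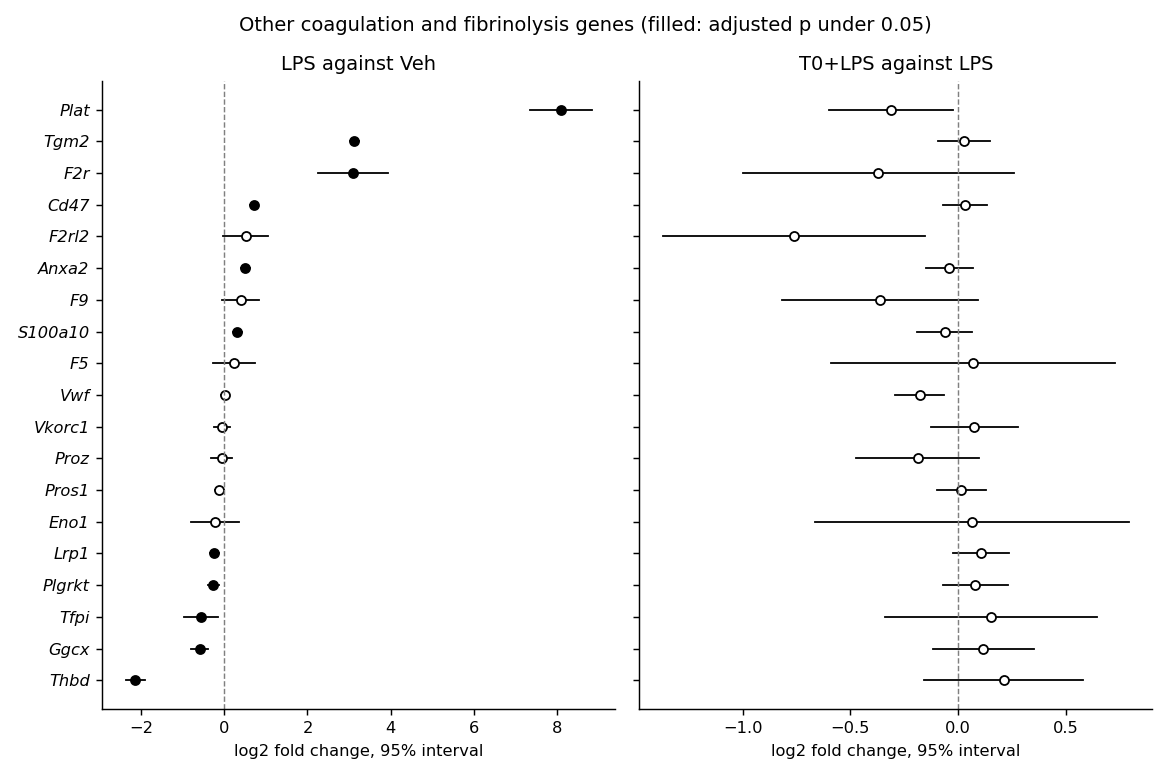
Log2 fold change (x axis) with its 95% interval from edgeR for the 19 tested genes of the wider pathway in LPS against Veh and T0+LPS against LPS, filled where the adjusted p was under 0.05. Plat lies at 8.09 (2 reads in Veh, 7.52 to 10.6 over 15 alternative fits) and Thbd at -2.13 with LPS, and no point is filled with T0 (under library totals S100a10 loses its LPS call, and Vwf, Pros1, Vkorc1 and Proz are called lower).

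The genes whose log2(CPM + 1) over the 9 libraries was most like each member's, among genes with a mean of at least 5 CPM, are given as a description, since 9 libraries in 3 groups largely restate the group means. F3 was most like Exosc9 (Pearson r = 0.984), Tha1 and Rgs16. Of these, Rgs16, which encodes a regulator of G protein signalling, had means of 8.65, 22.4 and 12.8 CPM in Veh, LPS and T0+LPS. F7 was most like Traf5 (r = 0.962), an adaptor of TNF receptors, then Rbm45 and Cdc26. F10 was most like Anxa3 (r = 0.994), Timm17a and Gtf2b. Plau followed Slc39a1 (r = 0.998), Tmem128 and Mrps18b, and Plaur was close to Cited2 (r = 0.998) and Sde2. Cited2, a transcriptional coregulator, had means of 205, 476 and 406 CPM in Veh, LPS and T0+LPS. Thbs1 was most like Pid1 (r = 0.982), Lrp11 and Dpp9, and Procr like 4930453N24Rik (r = 0.998), Spaca6 and Eid3.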

How the data were processed

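RNA-seq was performed on 9 libraries of BMDMs, 3 each of Veh, LPS and T0+LPS, grouped by GEO's labels. Poly(A) RNA was sequenced, and the authors used cutadapt for trimming, HISAT2 for alignment to mm10 transcripts and featureCounts for counting on RefSeq. The strand setting is not given in the sources used here. The deposited values are raw read counts, 1 row per transcript (32850 rows, 24061 symbols). Exon positions showed that reads on bases of several rows were left out, so that 6696 rows without a base of their own held 0 reads. Further deposited tables of the authors' own comparisons, with gene names and in part mean counts, p-values and RPKM ratios, were not used.

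Counts were summed by symbol, filtered with filterByExpr, scaled with TMM factors (0.931 to 1.14) and tested with edgeR 4.0.16 (glmQLFTest, R 4.3.3) over the 2 groups compared, with Benjamini-Hochberg adjustment at 0.05 over all genes tested. Standard errors (SE) were taken from the log2 fold change and F statistic, and intervals from the t quantile at the residual and prior degrees of freedom. Single values also had an exact permutation test (scipy 1.17.1). Scripts were tested on simulated data. Alternatives were other scalings and filters, DESeq2 1.42.0, limma-voom (limma 3.58.1), rows on their own, 1 fit to all 9 libraries, a replicate block, and leaving out each library. Totals were 13299044 to 16467983 reads, and intervals of ratios cover counting error only. Replicate pairs differed by more than sampling noise. Exon parts came from GENCODE on the same assembly. Named genes were all 9 members, called genes of a pathway list, 4 treatment checks, the 3 most similar genes per member and markers a result turned on. Members and lists were chosen with earlier results of these data known. Of the genes these rules name, 2 are not reported here.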

Additional observations from a re-analysis of the deposited data

How the results depend on the processing

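In LPS against Veh, the 7 log2 fold changes kept their direction and side of the threshold in 62 of 63 fits under other settings and in 42 of 42 fits without 1 library, the exception being F7 under library totals. For T0+LPS against LPS, 56 of 63 and 32 of 42 did so, and for T0+LPS against Veh 62 of 63 and 41 of 42. With T0, 5 members were called lower against LPS with no filter, and between 2 and 5 in the fits without 1 library. Procr turned to -0.0013 under library totals in that comparison. In the fits without 1 library, Plau ran from -0.080 to 0.036 and Procr from -0.020 to 0.036, so that the direction of neither is set. Under library totals in T0+LPS against Veh, F7 turned to -0.23 and 1 member was called lower. Library totals omit the TMM factors and moved the median of all genes to -0.28 in LPS against Veh and -0.29 in T0+LPS against Veh, and the split of all genes called higher and lower from 3148 and 2982 to 1696 and 5408, and from 3121 and 3172 to 1661 and 5520. With no filter, edgeR could give a far lower adjusted p than the main fit, for Plau in LPS against Veh 1.53e-220 against 9.29e-13. Calls made only there carry little weight. For T0+LPS against LPS, 126 genes were called higher and 171 lower, and 225 and 285 with no filter. Leaving out LPS replicate 1 gave 59 and 82, leaving out T0+LPS replicate 1 gave 86 and 103, and leaving out T0+LPS replicate 2 gave 78 and 94. The cause of the other changes was not tested. The table's own length column is the same number as the unshared bases for the 6 members compared per length, so that alternative tests nothing. Low counts limit F3, F10, Serpinb2 and F13a1, whose reads or unshared bases are few.

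Replicate numbers are shared by the groups, but same-numbered libraries did not deviate together (correlations from -0.12 to 0.12 over 7299 genes), so the numbers were not read as pairs. In T0+LPS against LPS, 0 of 6 libraries correlated best with their own number, in LPS against Veh 1 of 6 and in T0+LPS against Veh 2 of 6. With the replicate number as a block, 4 members were called lower in T0+LPS against LPS, F7 joining at -0.24 (adjusted p = 0.0393), and 155 and 230 of all genes were called higher and lower. The block changed no other call of a member.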
